A study of Mus musculus with 6 samples.

Results

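Wnt signalling was followed in the unsegmented tail of the mouse embryo, the tissue that buds off somites, through 37 genes chosen as ligands, receptors, secreted inhibitors, cytoplasmic components, TCF factors and targets of the pathway. The comparison was of 3 pools from wild-type c57bl/6 embryos with 3 pools from c57bl/6 embryos homozygous throughout for the Dll3tm1Rbe allele (Dll3neo/neo), all at 9.5 days post coitum. Dll3 encodes a Notch ligand needed for regular somite formation, and the labels name no other allele or agent in either group. The dissected tissue, presomitic mesoderm with the other germ layers of its level, was cut off behind the youngest somite after the allantois was removed. The sources used here do not give the number of embryos in a pool. Probe sets that the array's annotation assigns to exactly 1 of these symbols were averaged per gene on the log2 scale, which measured 33 of the 37 genes by 62 probe sets, out of 12393 named genes and 22626 probe sets. Rspo3, Fzd10, Tcf7 and Sp8 had no such probe set and are not analysed here.

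In canonical Wnt signalling a secreted Wnt binds a Frizzled receptor and an Lrp co-receptor, the Axin-based destruction complex is shut off, and beta-catenin, the product of Ctnnb1, enters the nucleus and binds TCF/LEF factors on target genes. Several targets, Axin2 and Dkk1 among them, are themselves inhibitors and close feedback loops. In the presomitic mesoderm Wnt3a from the tail bud sustains progenitors, and a set of Wnt targets is expressed in cycles that alternate with the cyclic Notch targets.

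The promoters of some of these targets carry the letters that TCF/LEF factors bind. The RefSeq table (GRCm38.p6) held 36 start sites for 24 of the 37 genes, and the 250 bases before each start were searched on both strands for CTTTGAT and CTTTGAA, and for TGGGAA, the core letters of the Notch effector RBPJ. TCF letters stood in 6 of the 36 windows (16.7%) against 7.48% of 32851 windows of all genes, and in 3 of 7 windows of the cyclic targets. RBPJ letters stood in 7 of 36 (19.4%) against 21.6% of all windows. The cyclic targets with TCF letters, Sp5, Dkk1 and Tnfrsf19, are shown first, and Tcf7l1, which had the smallest p of the 33 measured genes, last. Each line runs 5′ to 3′ on the gene's strand and ends at the base before the start, with both kinds of letters in capitals. A match is a run of letters and not a measured site.
Sp5, chr2:70474673-70474922, plus strand: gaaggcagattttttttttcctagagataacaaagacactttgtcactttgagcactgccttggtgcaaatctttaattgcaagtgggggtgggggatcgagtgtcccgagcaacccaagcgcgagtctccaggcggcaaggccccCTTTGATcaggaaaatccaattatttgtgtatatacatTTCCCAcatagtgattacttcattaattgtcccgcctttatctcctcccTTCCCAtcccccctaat
Dkk1, chr19:30549497-30549746, minus strand: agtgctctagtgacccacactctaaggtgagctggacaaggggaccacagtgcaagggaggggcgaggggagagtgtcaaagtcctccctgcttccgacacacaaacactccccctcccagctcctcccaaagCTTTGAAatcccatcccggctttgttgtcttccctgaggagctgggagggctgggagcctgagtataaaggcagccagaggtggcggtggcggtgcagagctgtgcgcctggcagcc
Tnfrsf19, chr14:61037988-61038237, minus strand: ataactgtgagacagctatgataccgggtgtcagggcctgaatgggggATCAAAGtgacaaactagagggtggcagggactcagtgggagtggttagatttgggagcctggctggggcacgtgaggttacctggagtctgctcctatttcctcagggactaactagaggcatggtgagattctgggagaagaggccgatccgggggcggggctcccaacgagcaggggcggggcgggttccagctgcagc
Tcf7l1, chr6:72789046-72789295, minus strand: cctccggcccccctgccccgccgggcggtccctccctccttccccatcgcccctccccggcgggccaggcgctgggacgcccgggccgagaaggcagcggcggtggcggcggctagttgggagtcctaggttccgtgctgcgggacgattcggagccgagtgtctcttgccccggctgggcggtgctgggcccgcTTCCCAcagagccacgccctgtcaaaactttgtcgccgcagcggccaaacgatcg
In Sp5 the TCF letters begin 104 bases before the start, and RBPJ letters, which read TTCCCA on this strand, follow at 66 and 17 bases. In Dkk1 the TCF letters begin 117 bases before the start. Tnfrsf19 has them 202 bases before the start of 1 of its 2 listed start sites, where they read ATCAAAG on the strand shown. Tcf7l1 has no TCF letters in this window and RBPJ letters at 55 bases. The windows of Axin2, Nkd1 and Dact1 hold neither run of letters, and those of Myc and Has2 were not in the table.

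Values are relative: each probe set was scaled to its median across the 6 arrays, and no absolute level can be read from them. The number of arrays limits the precision. Array medians lay between 0.985 and 1.01. Wild-type pool 3 had the widest spread of log2 ratios over all probe sets (SD 0.303, against 0.166 to 0.234 in the other pools). Wild-type pool 3 also held the highest value of 7 of 10 presomitic mesoderm and tail bud genes (Tbx6, Cdx2, Fgf8 and others), with a median log2 ratio of 0.43, against 0.13 and -0.04 in the other wild-type pools and -0.20, -0.27 and 0.09 in the mutant pools. All 10 had lower mutant means, where 48.9% of all genes did, and in 2 of them (Tbx6 and Hes7) the genotypes did not overlap (4.95% of all genes, 1.84% with the mutant lower). Mutant pool 1 alone was high in heart muscle genes, with a median log2 ratio of 2.64 over 8 genes against -0.23 to -0.01 in the others. In the 6 pools median log2 ratios ran from -0.32 to 0.09 for 8 somite genes, from -0.04 to 0.16 for 8 neural tube genes, from -0.04 to 0.08 for 9 endothelium and blood genes, from -0.09 to 0.01 for 9 endoderm genes, from -0.09 to 0.05 for 6 surface ectoderm genes and from -0.16 to 0.20 for 7 lateral plate genes. Ratios do not show whether a marker is present, so the tissue label could not be checked by level. Dll3, with a mean ratio of 1.70 ± 0.278 in wild-type and 0.498 ± 0.0341 in mutant pools (SD, n = 3 each), was the 1 gene that passed the test over all genes (limma adjusted p = 0.00132).

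None of the 33 Wnt genes passed that test. The adjusted p was 0.99998 for each of them, where 0.00807% of all genes passed per gene and 0.00442% of probe sets per probe set. At an unadjusted p under 0.05 in limma there was 1 of 33, Tcf7l1, against 1.28% of all genes. The log2 difference, mutant minus wild type, ran from -0.31 (Tnfrsf19) to 0.24 (Tcf7l1), with a median of -0.03 against 0.0028 over all genes. By sign 21 were lower and 12 higher in the mutant, 63.6% lower against 48.9% of all genes. Without wild-type pool 3 the count was 15 lower of 33, or 45.5% against 47% of all genes. Without both wild-type pool 3 and mutant pool 1 it was 12, or 36.4% against 44.5% of all genes. The medians in these 2 runs were 0.01 and 0.02, against 0.0080 and 0.018 over all genes. With array weights, which rest mostly on wild-type pool 2, 48.5% were lower, against 47.4% of all genes.

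For 32 of the 33 genes the 95% interval of the difference lay within 1.5-fold in either direction (0.585 on the log2 scale), which held for 96.1% of all genes. Tnfrsf19 was the exception, with an interval from -0.65 to 0.02. Pools of the same genotype differed about as much as those of other genes did: the median range between the highest and lowest of the 3 wild-type pools was 0.29 for the Wnt genes and 0.30 for all genes on the log2 scale, and that of the mutant pools was 0.20 for both.

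**Figure D1:**
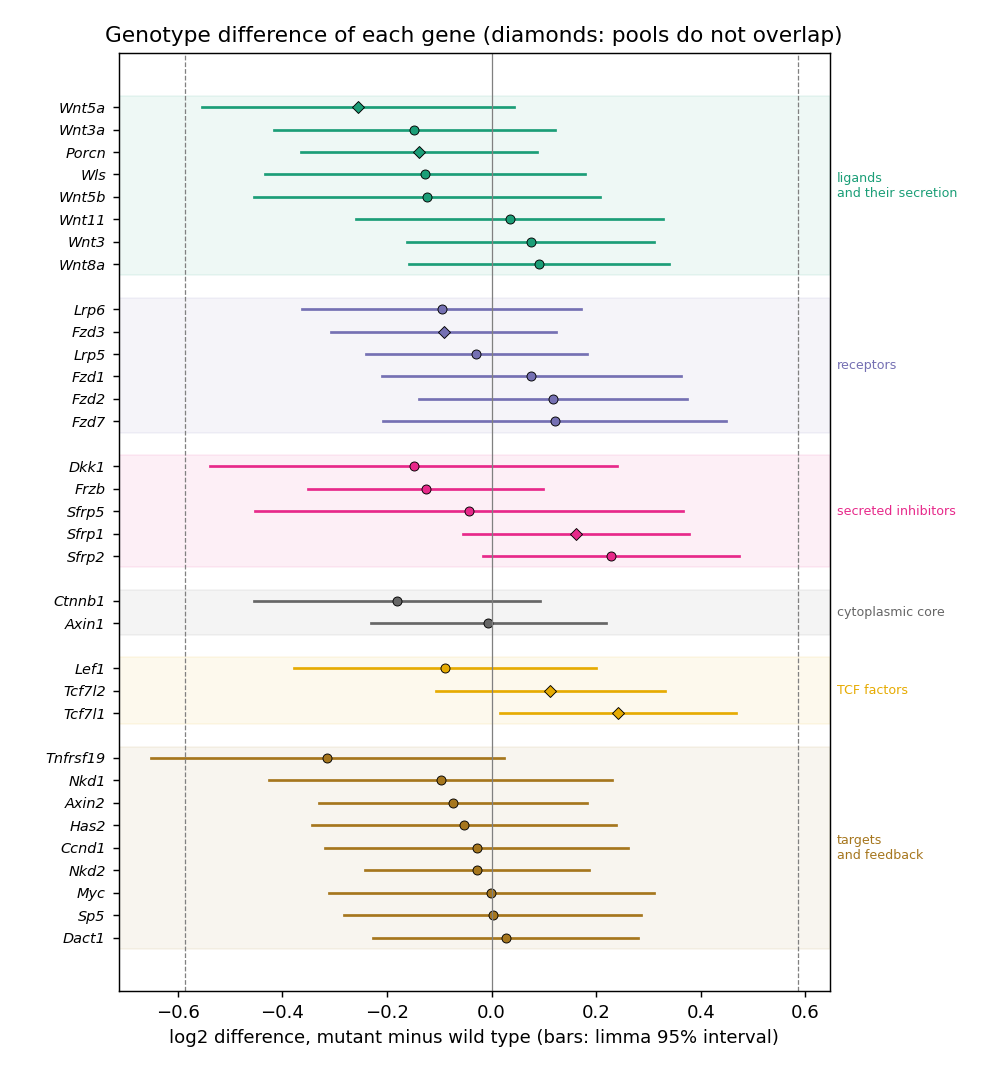
Log2 difference (mutant minus wild type) of each measured Wnt gene, grouped by role. Points are limma estimates from 3 pools per genotype, bars are 95% intervals, diamonds mark the 6 genes whose pools do not overlap between genotypes, and dashed lines mark 1.5-fold. Only the bar of Tcf7l1 leaves out 0, and only that of Tnfrsf19 crosses a dashed line.

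In 6 of the 33 genes, or 18.2%, the 3 mutant values did not overlap the 3 wild-type values, against 4.95% of all genes. In Wnt5a, Porcn and Fzd3 the mutant pools were the lower ones (1.84% of all genes), and in Tcf7l1, Tcf7l2 and Sfrp1 they were the higher ones (3.11% of all genes). These are 2 genes of ligands and their secretion, 1 receptor, 2 TCF factors and 1 secreted inhibitor, and no target was among them. By single probe sets the share was smaller: 5 of 62, or 8.06%, against 5.03% of all probe sets, of which 3 were lower (1.99% of all probe sets). With quantile normalization 4 of 33 had no overlap, 12.1% against 4.95% of all genes, and Fzd3 and Tcf7l2 were no longer among them. Without probe sets of the kinds that can read several transcripts or genes, 2 of the 26 genes left showed no overlap (Tcf7l1 and Wnt5a, 7.69% against 5.07% of all genes). With wild-type pool 3 and mutant pool 1 left out it was 13 of 33, 39.4% against 38.4% of all genes.

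**Figure D2:**
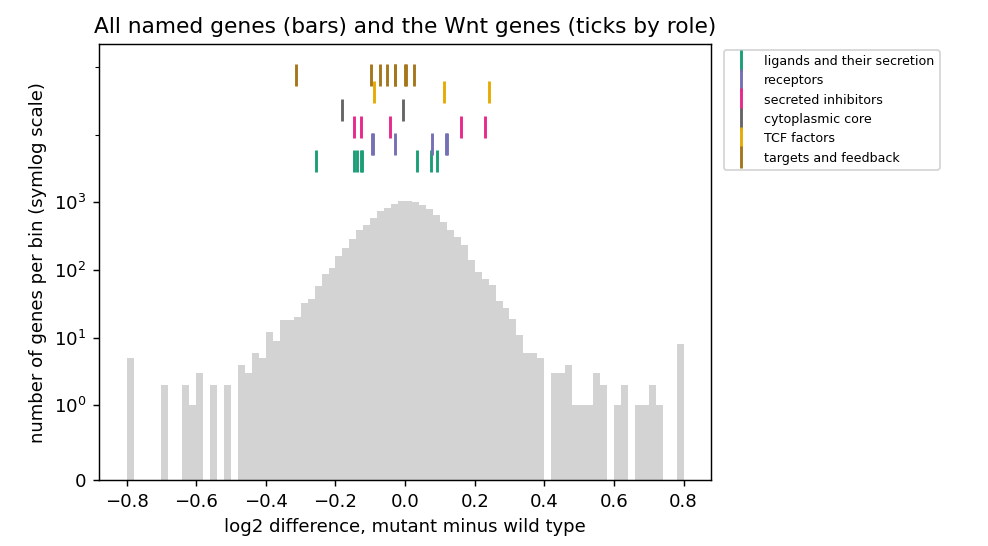
Histogram of the log2 difference (mutant minus wild type) of 12393 named genes, on a symlog count axis, with the Wnt genes as ticks coloured by role above it. The 13 genes beyond 0.8 in size are drawn in the outer bins, and all ticks lie between -0.31 and 0.24.

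None of the ligands passed over all genes. Of 8 measured genes of ligands and their secretion 5 were lower and 3 higher by sign (62.5% lower against 48.9% of all genes), 2 were lower without overlap (1.84% of all genes), and the median log2 difference was -0.12. Wnt5a, a ligand known for non-canonical signalling in the extending tail, had ratios of 1.001, 1.03 and 1.30 in the wild type, always given in the order of pools 1, 2 and 3, against mutant ratios of 0.812, 0.979 and 0.997. The groups did not overlap, but wild-type pool 1 and mutant pool 3 nearly met, and wild-type pool 3 stood apart. Its log2 difference was -0.25 (SE 0.13, limma unadjusted p = 0.0859) and ran from -0.33 to -0.14 without each pool in turn, nearest 0 without wild-type pool 3. With wild-type pool 3 and mutant pool 1 both left out, the difference of Wnt5a was only -0.04. Both of its probe sets had the same sign, at -0.33 and -0.18, but each overlapped between genotypes, so the separation held only for their mean.

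Porcn, which encodes the acyltransferase that adds the lipid Wnt proteins need for secretion, gave wild-type values of 1.05, 1.01 and 1.02 against mutant values of 0.992, 0.951 and 0.856. The wild-type values lay close together and mutant pool 3 was the lowest. The log2 difference was -0.14 (SE 0.10), and -0.08 without mutant pool 3. Wnt3a, the main canonical ligand of the tail bud, stood at 1.14, 0.961 and 1.04 in wild-type pools, compared with 0.918, 0.853 and 1.07 in mutant ones. Here the groups overlapped, since mutant pool 3 exceeded wild-type pools 2 and 3, and the log2 difference was -0.15 (SE 0.12). Leaving out a pool moved it to values between -0.24 (mutant pool 3 left out) and -0.07 (mutant pool 2 left out), and to -0.08 where wild-type pool 1 was dropped. Of the others, Wls, the carrier of Wnt proteins to the cell surface, had -0.13, with a range from -0.23 without wild-type pool 1 to 0.02 without wild-type pool 3. Wnt5b, a paralogue of Wnt5a, had -0.12, with a range from -0.23 without wild-type pool 2 to 0.03 without wild-type pool 3. Wnt8a (0.09), Wnt3 (0.07) and Wnt11 (0.03) were close to 0. The single probe set of Wnt3 had a median of 0.532, under the file's apparent floor, and is of a kind that can cross-hybridise.

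The receptors were split evenly, with 3 of 6 lower and 3 higher by sign and a median of 0.02. Fzd3, a Frizzled receptor best known in planar polarity and axon guidance, had 1.03, 0.957 and 1.06 in wild-type and 0.952, 0.953 and 0.950 in mutant pools. The gap between the groups was narrow, with wild-type pool 2 just above all mutant pools, and the log2 difference was -0.09 (SE 0.10). Its 4 probe sets disagreed, running from -0.26 to 0.09. Fzd7, a receptor of early mesoderm and neural tissue, gave wild-type values of 0.794, 0.987 and 1.002 against mutant values of 1.14, 1.07 and 0.826. Both genotypes had a low pool, the log2 difference was 0.12 (SE 0.15), and the 2 probe sets gave -0.02 and 0.26. Leaving out a pool gave 0.01 (wild-type pool 1 dropped) to 0.26 (mutant pool 3 dropped). Fzd2 stood at 0.879, 0.945 and 1.08 in wild-type pools, compared with 0.964, 1.12 and 1.07 in mutant ones, a log2 difference of 0.12 (SE 0.12) with overlapping groups that ran from 0.05 without wild-type pool 1 to 0.20 without wild-type pool 3. Fzd1 (0.08) and the co-receptor genes Lrp6 (-0.10) and Lrp5 (-0.03) differed less. The sign turned for Fzd1 and Lrp5 without wild-type pool 3 and for Lrp6 without mutant pool 1.

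The secreted inhibitors had differences of both signs, 3 of 5 lower and 2 higher. Sfrp1 and Sfrp2 encode secreted Frizzled-related proteins, which bind Wnts outside the cell. Sfrp1 had 0.950, 0.998 and 0.940 in wild-type and 1.12, 1.03 and 1.09 in mutant pools, with no overlap. The log2 difference was 0.16 (SE 0.10), and its 4 probe sets were all positive, from 0.05 to 0.28. Each of the 4 overlapped between genotypes and had a mutant pool below 1 or a wild-type pool above it, so the separation held only for their mean. Sfrp2 gave wild-type values of 0.884, 0.868 and 1.004 against mutant values of 1.17, 0.996 and 1.07. Wild-type pool 3 lay just above mutant pool 2, and the log2 difference was 0.23 (SE 0.11, limma unadjusted p = 0.0645). Sfrp1, Sfrp2 and Sfrp5 each had their highest gene mean in mutant pool 1, but of the Sfrp1 probe sets only 1460187_at did. The heart muscle genes were high in that pool. It also held the highest value of 4 of 9 endothelium and blood genes and 3 of 9 endoderm genes, Afp and Ttr among them (11.9% of all genes). The part of these tissues in the Sfrp values was not tested. Without mutant pool 1 the differences of Sfrp1 and Sfrp2 were 0.14 and 0.17, and that of Sfrp5 was -0.24, against -0.04 with all pools and 0.15 without mutant pool 3. Dkk1, an inhibitor that blocks the Lrp co-receptors and cycles in the presomitic mesoderm, stood at 1.02, 0.975 and 1.40 in wild-type pools, compared with 0.837, 1.24 and 0.983 in mutant ones. It had its highest value in wild-type pool 3, and the difference of -0.15 (SE 0.17) turned to 0.02 without that pool and was -0.30 without mutant pool 2. Frzb, another Frizzled-related inhibitor, had -0.13.

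In the cytoplasmic core, Ctnnb1 had 0.991, 0.978 and 1.10 in wild-type and 1.03, 0.779 and 0.912 in mutant pools. Mutant pool 2 was the lowest, mutant pool 1 was within the wild-type range, and the log2 difference was -0.18 (SE 0.12). Leaving out a pool gave -0.28 (mutant pool 1 dropped) to -0.08 (mutant pool 2 dropped), and its 3 probe sets gave -0.27, -0.27 and -0.01. Axin1, the scaffold of the destruction complex, gave wild-type values of 1.01, 0.948 and 1.05 against mutant values of 0.990, 1.06 and 0.949. Here the groups overlapped fully, and the difference was -0.01 (SE 0.10).

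The TCF factors held the gene with the smallest p of the 33. Tcf7l1, also called Tcf3, encodes a TCF that acts mostly as a repressor of Wnt targets. It stood at 0.879, 0.894 and 0.935 in wild-type pools, compared with 1.01, 1.04 and 1.16 in mutant ones. The groups did not overlap, with a wild-type mean of 0.903 ± 0.0289 and a mutant mean of 1.07 ± 0.0783 (SD, n = 3 each). The log2 difference was 0.24, or 1.18-fold (95% interval 0.02 to 0.47, limma unadjusted p = 0.0387, adjusted p = 0.99998 over all genes). It stayed between 0.18 and 0.28 without each pool in turn, and 0.847% of all genes had a smaller p. None of the 33 genes had an unadjusted p under 0.05 once pool 2 of either genotype was left out. Its 2 probe sets gave 0.34 and 0.14, and the one with the larger difference overlapped between genotypes while the other did not.

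Tcf7l2, a TCF with activating and repressing isoforms, had 0.910, 0.833 and 0.920 in wild-type and 0.925, 0.984 and 0.969 in mutant pools. The gap between the groups, from wild-type pool 3 to mutant pool 1, was narrow, and the log2 difference was 0.11 (SE 0.10). Its 4 probe sets ran from 0.02 to 0.19, and 2 of them had medians under the file's apparent floor. Lef1, a TCF family member that acts as an activator in the tail bud, had a difference of -0.09 (SE 0.13) with overlapping groups. It ran from -0.23 without wild-type pool 2 to -0.01 without wild-type pool 3 and turned to 0.14 with array weights.

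**Figure D3:**
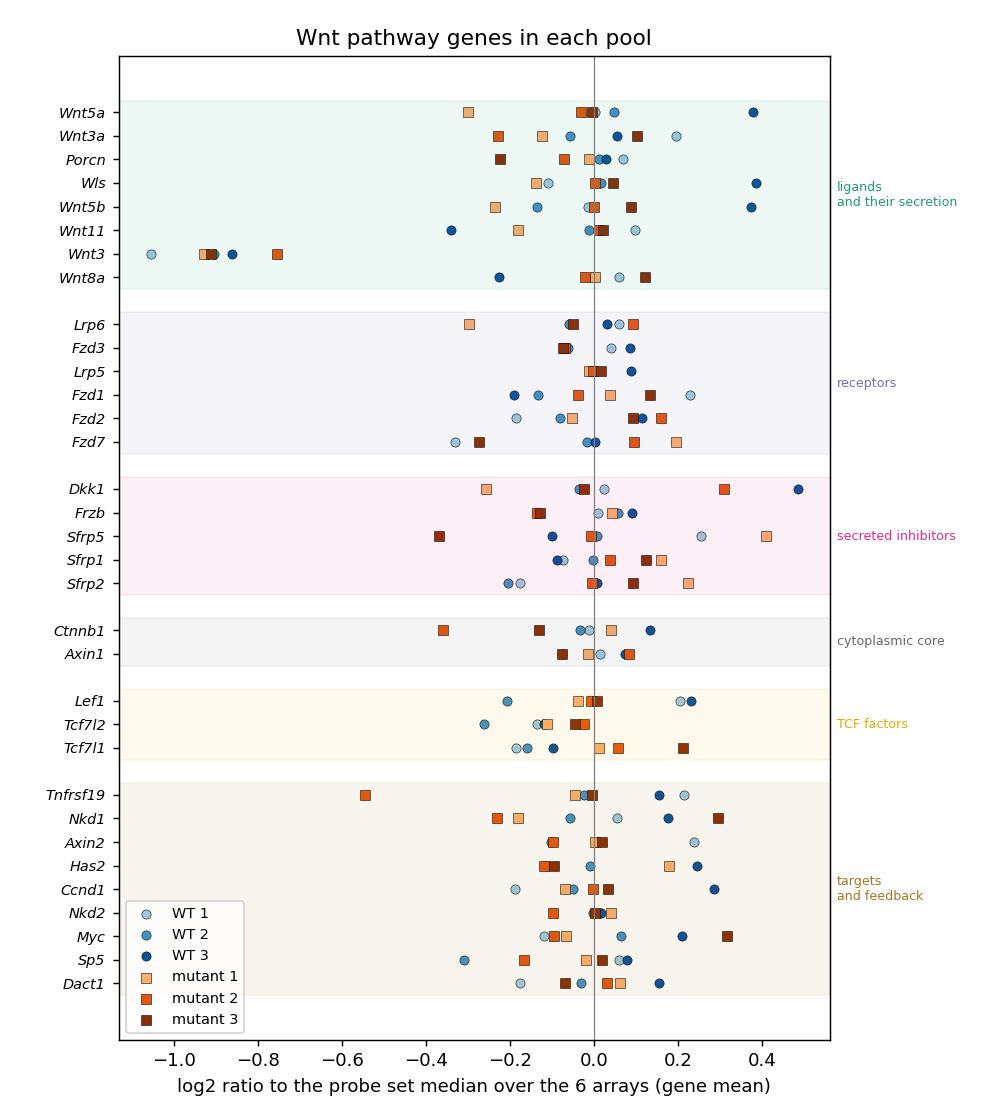
Log2 ratio of each measured Wnt gene (mean of its probe sets) in each of the 6 pools, grouped by role and ordered by genotype difference. Circles are wild-type pools and squares mutant pools. In Tcf7l1 the 3 squares lie right of the 3 circles, while in Axin2, Myc and Sp5 they are mixed. Wild-type pool 3 is the rightmost point in 13 of 33 genes.

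The targets are the usual readout of the pathway. Of 9 measured targets and feedback genes 7 were lower and 2 higher by sign, with a median of -0.03. For 8 of the 9 the difference was under 0.1 in size, against 68.6% of all genes, and none was without overlap. Dkk1, also a target, was counted with the inhibitors. Among the 8 cyclic targets, which include it, 6 (75%) were under 0.1, nearer the share of all genes. Axin2, the most widely used reporter of canonical Wnt signalling, stood at 1.18, 0.931 and 1.01 in wild-type pools, compared with 1.001, 0.934 and 1.01 in mutant ones. Wild-type pool 1 was the highest, and pool 2 of both genotypes the lowest. The difference was -0.07 (95% interval -0.33 to 0.18), turned to 0.02 without wild-type pool 1 and was -0.15 without wild-type pool 2, and its 2 probe sets both gave -0.07. Sp5, a transcription factor gene that Wnt activates directly, had 1.04, 0.807 and 1.05 in wild-type and 0.987, 0.891 and 1.01 in mutant pools. The mutant values lay within the wild-type range, with a difference of 0.0020 (95% interval -0.28 to 0.29) that ran from -0.12 without wild-type pool 2 to 0.07 without wild-type pool 3.

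Nkd1, a feedback inhibitor that binds Dishevelled, gave wild-type values of 1.04, 0.961 and 1.13 against mutant values of 0.882, 0.852 and 1.23. Mutant pool 3 was the highest of all pools and mutant pools 1 and 2 the lowest. Among the mutant pools, the tail bud genes too had their highest median in pool 3. The difference was -0.10 (SE 0.15), with a range from -0.26 without mutant pool 3 to -0.0016 without mutant pool 2. Myc, a growth regulator, stood at 0.921, 1.05 and 1.16 in wild-type pools, compared with 0.955, 0.935 and 1.25 in mutant ones, again with mutant pool 3 highest, and differed by -3.87e-04 (SE 0.14), with a range from -0.13 when mutant pool 3 was dropped to 0.08 when wild-type pool 3 was. Dact1, a Dishevelled-binding modulator, had 0.884, 0.978 and 1.11 in wild-type and 1.04, 1.02 and 0.953 in mutant pools. Its mutant pools lay inside the wild-type range, with a difference of 0.03 (SE 0.11) that ran from -0.05 without wild-type pool 1 to 0.11 without wild-type pool 3. Has2, which makes hyaluronan, gave wild-type values of 0.923, 0.993 and 1.19 against mutant values of 1.13, 0.921 and 0.936. Each genotype had a single high pool, and the difference of -0.05 (SE 0.13) turned to 0.05 without wild-type pool 3 and was -0.15 without mutant pool 1. Ccnd1, a G1 cyclin gene (-0.03), and Nkd2, the paralogue of Nkd1 (-0.03), completed the set.

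Tnfrsf19, also called Troy, a TNF receptor family gene that cycles with the Wnt targets, had the largest difference of the 33 genes. The mean of its probe sets stood at 1.16, 0.984 and 1.11 in wild-type pools, compared with 0.969, 0.685 and 0.996 in mutant ones. Mutant pool 2 was far below the rest, and mutant pool 3 exceeded wild-type pool 2. The log2 difference was -0.31 (SE 0.15, limma unadjusted p = 0.0648) and ran from -0.41 without mutant pool 3 to -0.14 without mutant pool 2. Its 3 probe sets gave different answers. Probe set 1415921_a_at had 1.31, 1.03 and 1.11 in wild-type and 0.974, 0.556 and 0.749 in mutant pools, without overlap and with a difference of -0.63. Probe set 1425212_a_at gave -0.31 and shared the low value in mutant pool 2 (0.591), but not in mutant pool 3 (1.09). Probe set 1448147_at gave -0.0020, with 0.977 in mutant pool 2. RefSeq lists 2 start sites for this gene, and the sources used here do not say which transcripts each probe set reads.

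**Figure D4:**
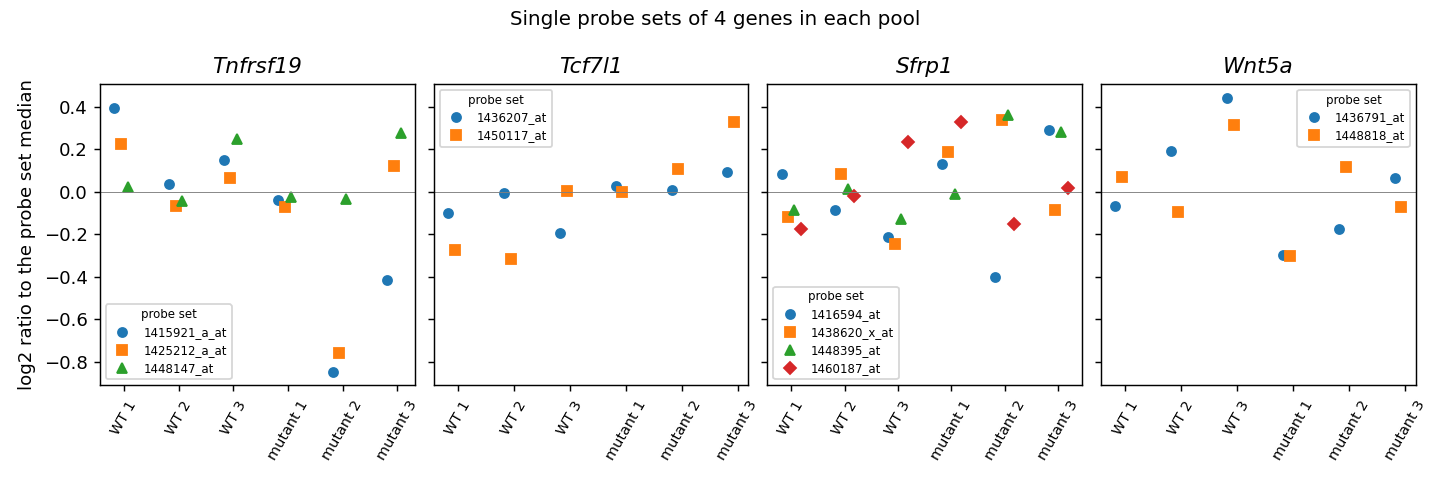
Log2 ratio of each probe set of Tnfrsf19, Tcf7l1, Sfrp1 and Wnt5a in the 6 pools, with a symbol and colour for each probe set. Of the 3 Tnfrsf19 probe sets 2 are low in mutant pool 2 (ratios of 0.556 and 0.591) and the other is not (0.977).

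Of the 33 genes 18 had 2 or more probe sets. In 4 of these, Axin1, Ccnd1, Fzd3 and Fzd7, the probe sets had differences of opposite sign. The gap between the highest and lowest log2 difference within a gene had a median of 0.15 and reached 0.63 in Tnfrsf19. In Axin2 it was 2.06e-04.

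Wild-type pool 3 held the highest value of 13 of the 33 genes (39.4%, against 34.4% of all genes) and of 4 of the 8 cyclic targets Axin2, Nkd1, Dkk1, Dact1, Sp5, Myc, Tnfrsf19 and Has2. The median log2 ratio of these 8 came to 0.04, -0.03 and 0.17 for the wild type, against -0.03, -0.11 and 0.01 for the mutant, so the genotypes overlapped. The median of the tail bud genes was likewise highest in wild-type pool 3 and lowest in mutant pool 2. The part of tail bud content in these values was not tested, and in bulk samples fewer cells of a type and less RNA per cell cannot be told apart. The median difference of the cyclic targets was -0.06, with 6 of 8 lower by sign, and turned to 0.03 without wild-type pool 3.

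**Figure D5:**
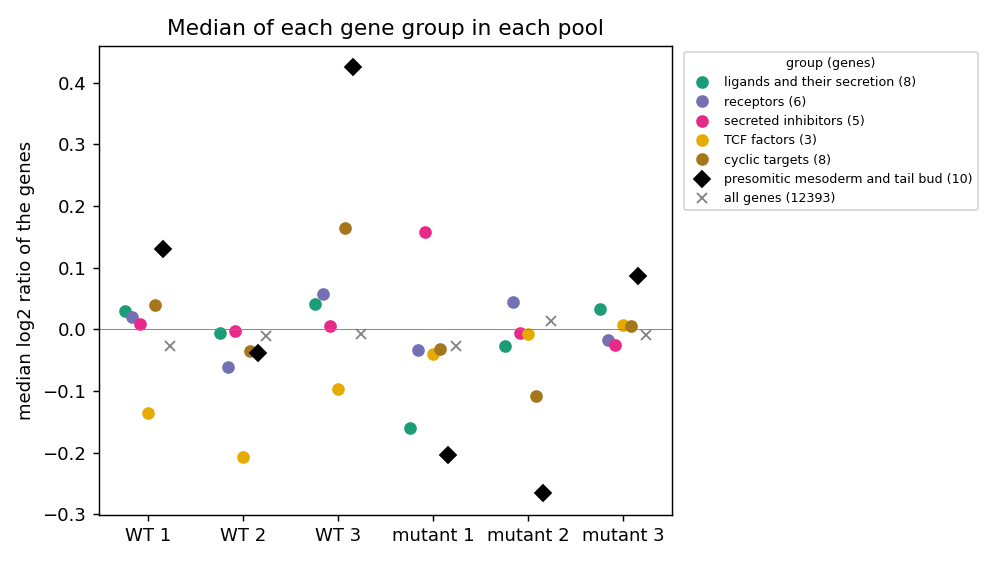
Median log2 ratio of each Wnt gene group in each of the 6 pools, with 10 presomitic mesoderm and tail bud genes (diamonds) and all genes (crosses), the number of genes in brackets. Cyclic targets and tail bud genes are both highest in wild-type pool 3 (0.17 and 0.43) and lowest in mutant pool 2 (-0.11 and -0.27).

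Of 77 other Wnt pathway genes 66 were measured, and none passed over all genes. By sign 31 were lower and 35 higher, with a median of 0.01, and 5 of the 66 (7.58%) were without overlap against 4.95% of all genes, 4 of them higher, a side that held 3.11% of all genes. The leading gene was Wnt2, a ligand of extraembryonic and splanchnic mesoderm and blood vessels, with wild-type values of 0.885, 0.942 and 0.889 against mutant values of 1.27, 1.33 and 1.06. The groups did not overlap, and the log2 difference was 0.42 (SE 0.11, limma unadjusted p = 0.00412, adjusted p = 0.99998). Rspo2, which encodes an R-spondin that keeps Wnt receptors at the surface, gave wild-type values of 0.897, 0.966 and 0.724 against mutant values of 1.23, 1.12 and 1.03, a difference of 0.39 (SE 0.13).

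Tle5, a short member of the Groucho co-repressor family that TCF factors recruit, stood at 0.894, 0.911 and 0.878 in wild-type pools, compared with 1.13, 1.09 and 1.12 in mutant ones. The spread within each genotype was small, and the difference was 0.32 (SE 0.09, limma unadjusted p = 0.00714). Apc, a scaffold of the destruction complex and the 1 gene of this list without overlap on the low side, had 0.922, 0.926 and 1.04 in wild-type and 0.915, 0.849 and 0.865 in mutant pools, a narrow gap and a difference of -0.13 (SE 0.10). By class, the numbers lower and higher were 6 and 9 of the other ligands and agonists, 4 and 9 of the other receptors and surface regulators, 5 and 3 of the other secreted inhibitors, 7 and 5 of the other cytoplasmic components, 3 and 3 of the planar polarity genes and 6 and 6 of the nuclear partners. Lateral plate genes, 5 of 7 higher by sign with a median of 0.15, and endothelium and blood genes, 8 of 9 higher with a median of 0.09, had the same sign as Wnt2 and Rspo2. That sign was not particular to them. Medians were also positive for heart muscle (0.96), somite (0.07), neural tube (0.06), endoderm (0.05) and surface ectoderm genes (0.04), and negative only for tail bud genes (-0.37). The part of these tissues in the values of Wnt2 and Rspo2 was not tested.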

How the data were processed

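Affymetrix MOE430A arrays read biotin-labelled RNA of 6 pools. The authors deposited a ratio on a linear scale for each probe set and array. In 92.8% of probe sets the median over arrays is 1, so values were evidently scaled to that median, and 1640 of 22626 probe sets have a median below 1, where a floor appears to replace it. The submitters' processing notes name RMA and MAS5 but not what each was used for, so earlier steps are unknown here. Control probe sets (64) were dropped. Of the rest, 20380 have 1 gene symbol, 691 several and 1555 none, and a RefSeq table (GRCm38.p6) supplied current symbols for 20351 of 21071 by Entrez ID.

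Log2 ratios without offset were averaged over all probe sets of a gene and compared with limma 3.58.1 in R 4.3.3 (lmFit, eBayes, genotype as the only term, two-sided, Benjamini-Hochberg over 12393 genes, threshold 0.05), and likewise per probe set. Intervals are limma's. An exact permutation test of 3 against 3 pools cannot go below 0.10 and was not used. The code was tested on simulated data. The design text calls the pools biological replicates. Alternatives changed the normalization, probe set filter, averaging, variance model, array weights and pools used.

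The genes, lists and tests were chosen with earlier results of these data known. Pool values are given for genes without overlap, the 2 with the largest difference in each role and the cyclic targets, and for 3 other pathway genes per direction with the smallest p among those without overlap. Plots used Python 3.11.15 with matplotlib 3.10.9.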

Additional observations from a re-analysis of the deposited data

How the results depend on the processing

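The count of Wnt genes that passed over all genes stayed at 0 under each alternative run, while those with an unadjusted p under 0.05 in limma were 2 with quantile normalization, 2 with the median of a gene's probe sets, 4 with array weights, 3 without wild-type pool 3 and mutant pool 1, and 0 to 2 without each pool in turn. Over all genes that p was reached by 159 genes, by 1086 with array weights, which rested mostly on wild-type pool 2, by 849 without both pools and by 84 to 440 without each pool in turn. Genes passing the adjusted threshold numbered 1 (Dll3), and 2 with quantile normalization, centred arrays, without probe sets of several targets or without those with a median below 1 (Dll3 and Hnrnpl), 4 with array weights, and 1 to 2 without each pool in turn. Probe sets passing numbered 1, and 2 with quantile normalization or array weights, 0 without both pools and 0 to 1 without each pool in turn. Wnt genes without overlap numbered 6, and 4 with quantile normalization, 5 with centred arrays, 5 of 32 without probe sets with a median below 1 and 2 of 26 without those of several targets. In these 4 runs 4.87% to 5.12% of all genes had no overlap. Fzd3 dropped out with quantile normalization and centred arrays, and Tcf7l2 with quantile normalization and without medians below 1. The count was 13 without both pools, or 39.4% against 38.4% of all genes. It was 7 to 11 without each pool in turn, where 9.80% to 18.3% of all genes had no overlap. Wnt genes lower by sign numbered 21, 12 without both pools and 15 to 21 without each pool in turn. Of all genes 48.9% were lower, 44.5% without both pools and 43.9% to 53.7% without each pool in turn. The choice to leave out both pools and the counts of overlap under alternatives came after seeing the data. Of 33 Wnt genes 17 kept their sign without each pool in turn, and the 16 that turned were all under 0.15 in size. Under every alternative run that measured them 15 kept it. Of these 15, Ctnnb1, Porcn and Wnt3 were not measured without probe sets of several targets, and Tnfrsf19 kept its sign there at only -0.0020. On log2(value + 1) differences are smaller by construction. Array weights were estimated gene by gene because the default method did not converge. With the replicate number as a replicate block, 252 genes and 3 Wnt genes had an unadjusted p under 0.05 and the same 1 gene passed. Deviations of same-numbered pools correlated at 0.187, -0.0016 and 0.207, and those of other pairs of pools ran from -0.203 to 0.122. For pools 1 and 3 the same number gave the highest values of all, while wild-type pool 2 correlated best with mutant pool 1 (0.122). These values do not settle whether the numbers mark pairs, and the main test did not take them as pairs. The cause of these changes was not tested. Without intensities, dim probe sets could not be set apart.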
